A study of Mus musculus with 3 samples.

Results

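Snai1, Snai2, Twist1, Twist2, Zeb1, Zeb2 and Prrx1, transcription factors of epithelial-mesenchymal transition (EMT), were described together with S100a4 in MBT2 cells, a mouse bladder cancer cell line. The genes were chosen by name, with earlier results of these data known. The Ensembl identifiers of all 8 were found among the 57010 genes of the deposited count table. RNA-seq had been performed on cells stably transfected with a plasmid for the hairpin shAsns#1, for the hairpin shAsns#2, or for a scramble hairpin, with 1 library per condition. Both shAsns hairpins are directed against Asns, which encodes asparagine synthetase. After rounding, the libraries held 19167852 counts for shAsns#1, 22915511 for shAsns#2 and 19326826 for scramble. All 8 genes were among the 14003 genes that reached 10 counts in 1 or more libraries, which were kept for the tests. Asns itself was at 33.5 CPM (counts relative to the library total, with totals scaled by the TMM method) with shAsns#1 and 27.8 CPM with shAsns#2, against 84.4 CPM in scramble. The fold change of Asns by edgeR was -1.46 ± 0.15 on the log2 scale (SE, adjusted p = 0.0071).

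EMT is the program by which epithelial cells loosen their junctions and take on the shape and motility of mesenchymal cells. Snai1 and Snai2 (SNAIL and SLUG) are zinc-finger repressors, Zeb1 and Zeb2 combine zinc fingers with a homeodomain, and all of them silence epithelial genes such as Cdh1 (E-cadherin) by binding E-box sequences. Twist1 and Twist2 are basic helix-loop-helix factors that act with E-protein partners, and Prrx1 is a paired-related homeobox factor of mesenchyme. S100a4, also called fibroblast-specific protein, is a small calcium-binding protein that binds non-muscle myosin, is known for its part in cell motility, and is used as a marker of mesenchymal cells.

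The sequences before the transcription start are shown for S100a4, Twist2 and Snai1, the 3 genes of the group that stood more than 1.5-fold below scramble with both hairpins. Each line gives the 250 bases before the RefSeq start site (GRCm38.p6), with capitals for CAGGTG, the E-box form bound by SNAIL and ZEB factors, and for TATAAA, both searched on both strands.
S100a4, chr3:90603520-90603769, plus strand: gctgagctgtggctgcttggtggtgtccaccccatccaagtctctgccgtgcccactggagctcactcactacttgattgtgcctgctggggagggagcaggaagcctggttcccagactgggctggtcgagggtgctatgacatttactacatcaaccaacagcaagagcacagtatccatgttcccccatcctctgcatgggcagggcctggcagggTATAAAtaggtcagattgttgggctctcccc
Twist2, chr1:91801211-91801460, plus strand: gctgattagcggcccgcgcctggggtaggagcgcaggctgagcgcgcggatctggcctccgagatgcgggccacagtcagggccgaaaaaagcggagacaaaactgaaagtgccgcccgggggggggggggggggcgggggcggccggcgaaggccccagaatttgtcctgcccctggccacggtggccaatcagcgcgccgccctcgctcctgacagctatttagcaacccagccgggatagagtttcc
Snai1, chr2:167537945-167538194, plus strand: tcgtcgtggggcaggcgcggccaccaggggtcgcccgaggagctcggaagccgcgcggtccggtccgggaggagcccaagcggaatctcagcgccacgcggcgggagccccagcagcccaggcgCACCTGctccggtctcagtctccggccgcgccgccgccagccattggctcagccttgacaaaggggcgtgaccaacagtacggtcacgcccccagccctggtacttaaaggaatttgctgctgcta
In these windows S100a4 held 1 TATAAA starting at -31 from the start site, and Snai1 held 1 E-box, read as CACCTG on the strand shown, starting at -126. Twist2 held neither. Of 32851 promoters of this length in the RefSeq table, 12.4% held TATAAA and 17.2% held CAGGTG, so each motif is common, and a match is a description and not a binding site. Promoters of 6 of the 8 genes were matched by symbol in the table. Those of Snai2 and Zeb1 were not matched.

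Markers of epithelial, mesenchymal and other cells were read in the same libraries. Cdh1 had 3 counts with shAsns#1 and 7 with shAsns#2, against 1 in scramble, and Vim, the mesenchymal intermediate filament vimentin, had 2584 and 1951 CPM, against 3668 CPM. Of 13 genes that hold the epithelial state, only Klf4, Grhl2 and Grhl1 reached the count minimum, while the splicing factor genes Esrp1 and Esrp2 had at most 1 count in any library. Summed over 10 urothelial markers the level was 12.2 CPM with shAsns#1 and 13.4 CPM with shAsns#2, against 12.1 CPM in scramble, and 4 of the 10, among them Krt5 and Krt20, were at 0 in all libraries. The 9 fibroblast markers summed to 711 and 871 CPM, against 659 CPM, although Thy1 was at 0 and Lum had 1 count at most. Pdgfrb, Col1a1, Col1a2 and Dcn each had at most 33.2 CPM in any library. Most of the sum thus came from other markers of the list. Pdgfrb and Col1a1 were lower with both hairpins, and Dcn and Col1a2 were higher. The part of the cells behind these markers in the values of the 8 genes was not tested. The 5 leukocyte markers, which include Ptprc and Csf1r, summed to 0.105 and 0.293 CPM, against 0.482 CPM. The defining markers of leukocytes were thus at or near 0 in each library. In bulk RNA, fewer cells of a type and less RNA per cell cannot be told apart.

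S100a4 was by far the most abundant of the 8 genes. On a scale that corrects for gene length (TPM), it stood at 1985 with shAsns#1 and 1667 with shAsns#2, against 4281 in scramble, among the most abundant genes of each library. The 7 factors together summed to 221 TPM with shAsns#1 and 281 TPM with shAsns#2, against 252 TPM in scramble. TPM was not scaled by TMM, so it serves to rank genes within a library and not to compare libraries. With shAsns#2, Zeb2 and Twist1 stood above scramble in TPM but below it in TMM-scaled CPM (193 against 197, and 46.3 against 49.3). Zeb2 had the highest level of the factors in every library (63.6 and 77.5 TPM, against 67.7 TPM), followed by Twist1 (43.6 and 61.0 TPM, against 55.5 TPM). The order below them differed between libraries. With shAsns#1, Snai1 (27.3 TPM), Prrx1 (27.3 TPM) and Zeb1 (26.8 TPM) had overlapping 95% Poisson intervals. The interval of Snai2 (23.5 TPM) overlapped those of Zeb1 and Snai1 but not that of Prrx1, and Twist2 was lowest (9.31 TPM). With shAsns#2, Snai2 (39.0 TPM) stood above Zeb1 (31.8 TPM) and Snai1 (31.6 TPM), whose intervals overlapped, and Prrx1 (25.8 TPM) and Twist2 (13.96 TPM) were lowest. In scramble, Snai1 (42.3 TPM) was followed by Zeb1 (29.3 TPM), Twist2 (24.6 TPM), Prrx1 (19.5 TPM) and Snai2 (13.03 TPM), and the interval of each factor lay clear of the next. Snai2 was therefore the lowest factor in scramble, and Twist2 was the lowest in both shAsns libraries. These intervals cover counting error only.

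**Figure D1:**
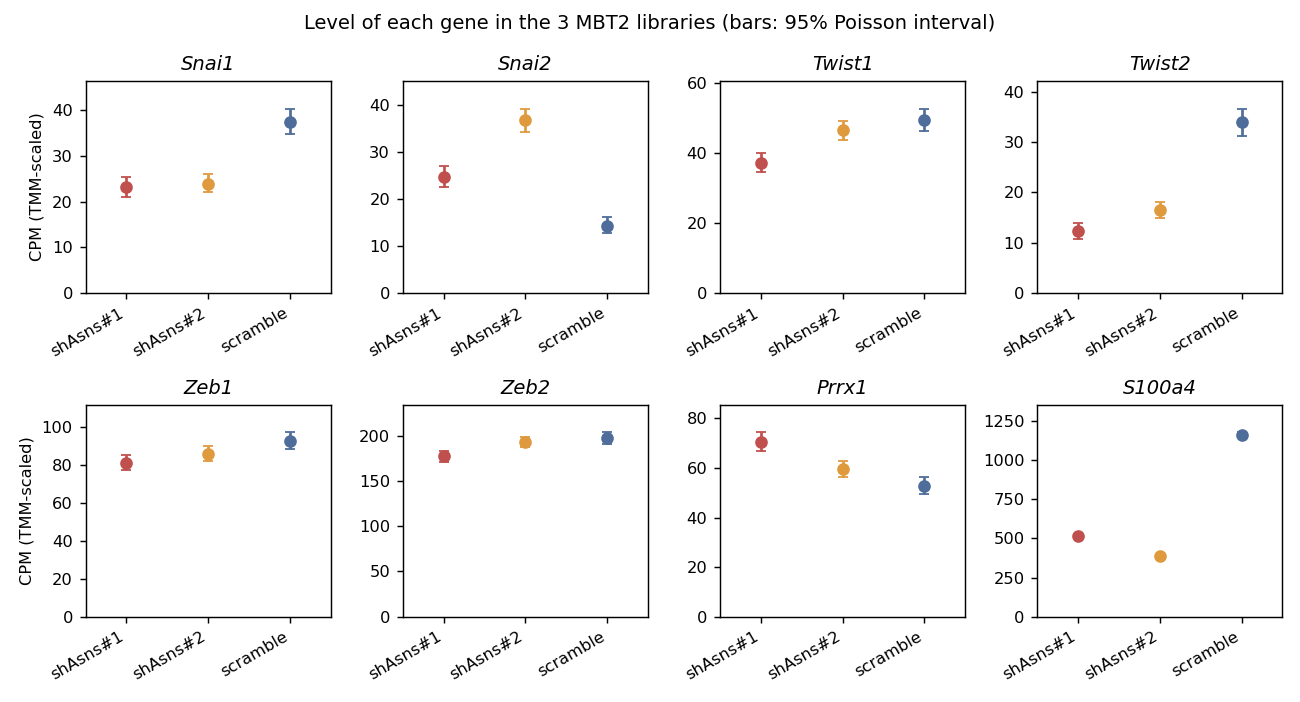
Level of each of the 8 genes in CPM (vertical axis, from 0, TMM-scaled) in the shAsns#1, shAsns#2 and scramble libraries; points are single libraries and bars are 95% Poisson intervals for counting error. S100a4, Twist2 and Snai1 were lower in both shAsns libraries, Snai2 was higher in both (24.7 and 36.7 CPM, against 14.4 CPM), and the other genes differed less.

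The shAsns libraries were compared with the scramble library to see which of the 8 genes differed between them. By edgeR's quasi-likelihood test of both hairpins together against scramble, S100a4 and Twist2 fell, and none of the 8 rose at an adjusted p under 0.05. Over all 14003 genes, 1.51% were lower and 1.14% were higher by the same rule. At an unadjusted p under 0.05, edgeR passed 4 of the 8, namely S100a4, Twist2, Snai1 and Snai2, where 19.8% of all kept genes did. DESeq2 called S100a4 and Twist2 lower and Snai2 higher, where it called 191 of the 14003 genes lower and 141 higher. Limma-voom called S100a4 and Twist2 lower, where it called 117 of all kept genes lower and 55 higher. The median log2 ratio of the 8 genes was -0.30 with shAsns#1 and -0.10 with shAsns#2, beside 0.00 and -0.00 over all kept genes. The only residual degree of freedom in this design comes from the difference between the 2 hairpins, and the lone scramble library is assumed to vary as they do. Both hairpins were set against the same scramble library, so anything particular to that library enters both ratios, and p-values reflect the spread between these libraries only.

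Each hairpin library was also compared with scramble on its own, with an exact binomial test. That test speaks to those libraries only, since no condition had replicates. The thresholds of the study's methods, an adjusted p up to 0.05 together with a log2 ratio beyond 1.5 in either direction, were applied. With shAsns#1 none of the 8 genes passed, where 1.76% of all kept genes were higher and 1.21% lower, and Twist2 came closest at -1.47. With shAsns#2, S100a4 alone passed, at -1.59, where 2.57% of all kept genes were higher and 1.24% lower, and the next largest ratio was that of Snai2 at 1.35. With a threshold of 1.5-fold, Snai2 was higher and S100a4, Twist2 and Snai1 were lower with each hairpin. Of all kept genes, 5.53% were higher and 5.75% lower by this rule with shAsns#1, 7.5% and 8.22% with shAsns#2, and 3.73% and 3.81% with both.

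**Figure D2:**
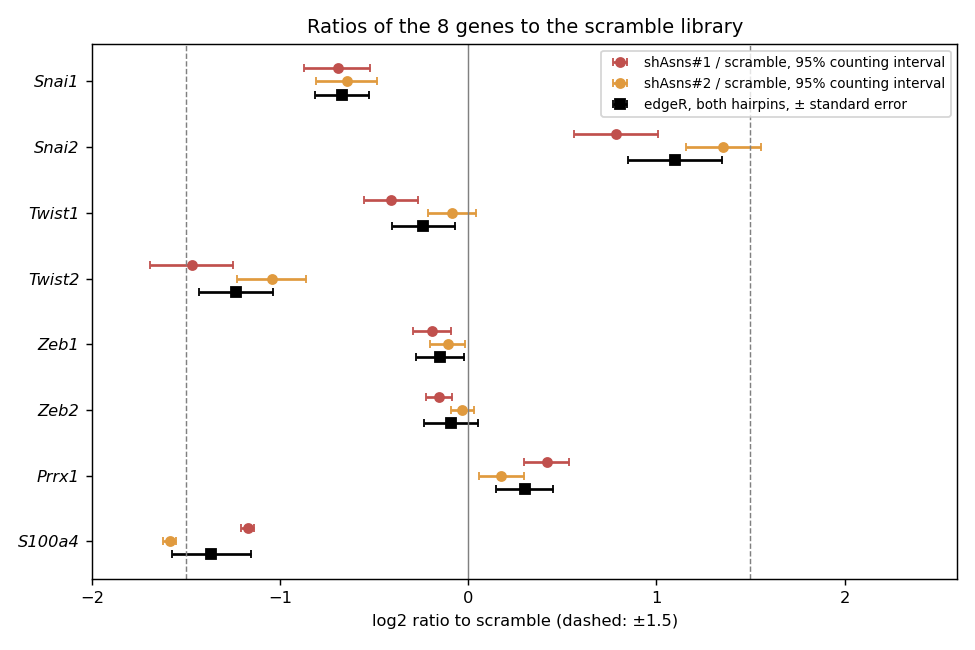
Log2 ratio to scramble (horizontal axis) of the 8 genes; circles are single shAsns libraries with 95% counting intervals, and squares are edgeR log2 fold changes of both hairpins with standard errors. S100a4 (-1.36) and Twist2 (-1.23) were furthest below 0 and Snai2 (1.10) furthest above, while Zeb1 (-0.15) and Zeb2 (-0.09) were near 0.

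S100a4 (ENSMUSG00000001020) lies on the plus strand of chromosome 3 from 90603771 to 90606045 (GRCm38, GENCODE M21). Its level was 516 CPM with shAsns#1 (95% Poisson interval 506 to 526) and 387 CPM with shAsns#2 (379.5 to 395), against 1163 CPM in scramble (1147 to 1178). Both shAsns libraries were thus below scramble by more than 2-fold, and they differed from each other as well. For shAsns#1 the log2 ratio to scramble was -1.17 (95% counting interval -1.21 to -1.14), for shAsns#2 it was -1.59 (-1.62 to -1.55), and the fold change by edgeR was -1.36 ± 0.21 on the log2 scale (SE, adjusted p = 0.022). S100a4 also passed DESeq2 (adjusted p = 3.4e-08) and limma-voom (adjusted p = 0.046). Its deposited counts were not whole, and a protein-coding gene model on the same strand, Gm42674, shares 302 exon bases with it. Gm42674 held only 8.93 counts with shAsns#1 and 5.73 with shAsns#2, against 5.44 in scramble, and adding them left the S100a4 log2 fold change at -1.36 (edgeR adjusted p = 0.023).

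Twist2 (ENSMUSG00000007805) lies on the plus strand of chromosome 1 from 91801461 to 91848028. Its level was 12.3 CPM with shAsns#1 (10.7 to 13.9) and 16.4 CPM with shAsns#2 (14.9 to 18.2), against 33.9 CPM in scramble (31.3 to 36.7). The log2 ratios were -1.47 (-1.69 to -1.25) and -1.04 (-1.23 to -0.86), and the fold change by edgeR was -1.23 ± 0.19 on the log2 scale (SE, adjusted p = 0.025). This call depended on how reads were assigned. An antisense gene on the minus strand, Gm29100, shares 1477 exon bases with Twist2 and covers all 250 bases of the Twist2 upstream sequence shown above. Its deposited counts were 168.75 with shAsns#1 and 227.07 with shAsns#2, against 117.59 in scramble, where those of Twist2 were 233.25 and 392.93, against 633.41. Gm29100 thus took 42.0% and 36.6% of the counts of the pair in the shAsns libraries, against 15.7% in scramble. The sources used here do not say whether the counting used strand. In each library, however, the fractional counts of Twist2 and Gm29100 added up to a whole number, 402 with shAsns#1, 620 with shAsns#2 and 751 in scramble. Reads of the shared bases were thus divided between genes on opposite strands. Without strand such reads cannot be told apart, so the share and the level of each gene are in part an allocation. With the counts of Gm29100 added to Twist2, the log2 ratios were -0.93 with shAsns#1 and -0.63 with shAsns#2, and the fold change by edgeR was -0.77 ± 0.17 on the log2 scale (SE, adjusted p = 0.060), which did not pass. For Gm29100 alone, edgeR gave a log2 fold change of 0.54 ± 0.22 (SE, adjusted p = 0.23).

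**Figure D3:**
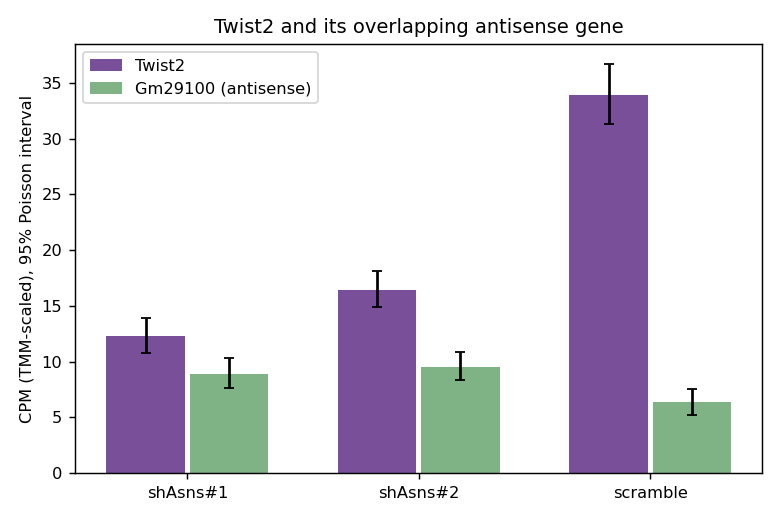
Level in CPM (vertical axis, from 0, TMM-scaled) of Twist2 and of the overlapping antisense gene Gm29100 in the shAsns#1, shAsns#2 and scramble libraries; bars are single libraries and error bars are 95% Poisson intervals. Twist2 was at 12.3 and 16.4 CPM with the hairpins, against 33.9 CPM in scramble, while Gm29100 was at 8.89 and 9.50 CPM, against 6.32 CPM.

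The SNAIL genes had ratios of opposite sign, and neither passed edgeR. Snai1 (ENSMUSG00000042821, chromosome 2, 167538195 to 167542814, plus strand) was at 23.1 CPM with shAsns#1 (21.0 to 25.4) and 23.9 CPM with shAsns#2 (22.0 to 25.9), against 37.4 CPM in scramble (34.7 to 40.3). The shAsns libraries had nearly the same level, and both lay below the scramble interval. The fold change of Snai1 by edgeR was -0.67 ± 0.14 on the log2 scale (SE, adjusted p = 0.057), with log2 ratios of -0.69 and -0.65. Snai2 (ENSMUSG00000022676, chromosome 16, 14705852 to 14709385, plus strand) was at 24.7 CPM with shAsns#1 (22.5 to 27.1) and 36.7 CPM with shAsns#2 (34.4 to 39.3), against 14.4 CPM in scramble (12.7 to 16.2). Both shAsns libraries lay above scramble, with a larger difference for shAsns#2. The log2 ratios of Snai2 were 0.78 (0.56 to 1.01) and 1.35 (1.16 to 1.56), and the fold change by edgeR was 1.10 ± 0.25 on the log2 scale (SE, adjusted p = 0.067). DESeq2 called Snai2 (adjusted p = 0.023), and limma-voom called neither gene. Within the scramble library, Snai1 stood above Snai2 in TPM (42.3 and 13.03). Within the shAsns#2 library, Snai2 stood above Snai1 (39.0 and 31.6 TPM). With shAsns#1 their Poisson intervals overlapped (Snai1 at 27.3 and Snai2 at 23.5 TPM). The counts of both genes were whole, and no annotated gene overlaps either of them in GENCODE M21.

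The ZEB genes had the fold changes nearest to 0 and did not pass edgeR. With total counts as the scaling, the log2 ratios with shAsns#2 turned to 0.0030 for Zeb1 and 0.080 for Zeb2, and to 0.023 for Twist1, described next. Zeb1 (ENSMUSG00000024238, chromosome 18, 5591860 to 5775467, plus strand) was at 81.1 CPM with shAsns#1 (77.1 to 85.3) and 86.0 CPM with shAsns#2 (82.3 to 89.8), against 92.7 CPM in scramble (88.4 to 97.1). By edgeR its log2 fold change was -0.15 ± 0.13 (SE, adjusted p = 0.57). Zeb2 (ENSMUSG00000026872, chromosome 2, 44983632 to 45117395, minus strand) was at 177 CPM with shAsns#1 (171 to 183) and 193 CPM with shAsns#2 (187 to 199), against 197 CPM in scramble (191 to 204). For Zeb2 the fold change by edgeR was -0.09 ± 0.14 on the log2 scale (SE, adjusted p = 0.77), and the intervals of shAsns#2 and scramble overlapped. An antisense gene, Zeb2os, shares 653 exon bases with Zeb2 and held 48.06 and 48.87 counts, against 52.42 in scramble, so it took little of the locus.

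Twist1 and Prrx1 did not pass edgeR either. Twist1 (ENSMUSG00000035799, chromosome 12, 33957671 to 33959829, plus strand) was at 37.0 CPM with shAsns#1 (34.4 to 39.9) and 46.3 CPM with shAsns#2 (43.6 to 49.1), against 49.3 CPM in scramble (46.1 to 52.5). Only the shAsns#1 library lay outside the scramble interval, and the fold change by edgeR was -0.24 ± 0.17 on the log2 scale (SE, adjusted p = 0.47). Prrx1 (ENSMUSG00000026586, chromosome 1, 163245119 to 163313710, minus strand) was at 70.5 CPM with shAsns#1 (66.8 to 74.4) and 59.6 CPM with shAsns#2 (56.5 to 62.8), against 52.8 CPM in scramble (49.5 to 56.2). Both shAsns libraries were above scramble, but a log2 fold change of 0.30 ± 0.15 did not pass edgeR (SE, adjusted p = 0.32). Its paralogue Prrx2 had 11 and 16 unscaled counts, against 39 in scramble, and did not pass either (edgeR adjusted p = 0.12).

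The direct comparison of shAsns#2 with shAsns#1 does not involve the scramble library. None of the 8 genes passed 1.5-fold with an adjusted p of at most 0.05 in the binomial test, where 4.72% of all genes did. At so small a share, finding none among 8 says little about these genes. Snai2 came closest, at 1.49-fold. At any size of ratio, 6 of the 8 had an adjusted p of at most 0.05 in the binomial test of these libraries, 4 of them higher and 2 lower, where 13.9% of all genes were higher and 17.8% lower. In shAsns#2, Snai2 was higher than in shAsns#1 by a log2 ratio of 0.57 (95% counting interval 0.41 to 0.74), Twist2 by 0.42 (0.19 to 0.66), Twist1 by 0.32 (0.19 to 0.46) and Zeb2 by 0.12 (0.06 to 0.19). S100a4 had a log2 ratio of -0.41 (-0.45 to -0.37) and Prrx1 of -0.24 (-0.35 to -0.13) in the same comparison. Snai1 (0.05, -0.13 to 0.23) and Zeb1 (0.08, -0.01 to 0.18) had intervals that included 0.

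**Figure D4:**
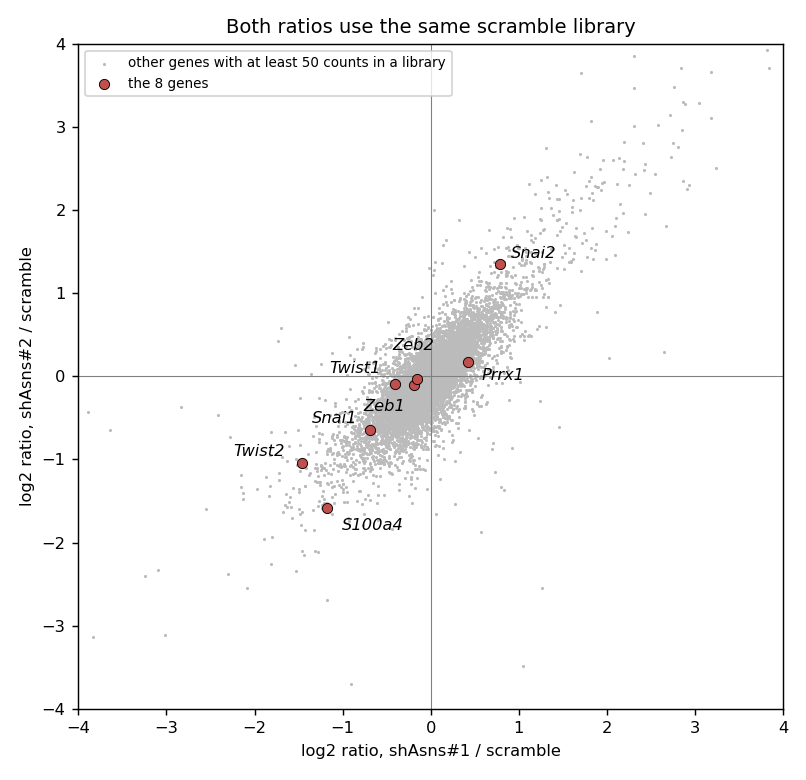
Log2 ratio to scramble with shAsns#1 (horizontal axis) and with shAsns#2 (vertical axis) for 11323 genes with at least 50 counts in a library (grey; 19 further genes lie beyond the axes at 4), with the 8 genes in red. Both axes use the same scramble library; S100a4 and Twist2 lie in the lower left, Snai2 in the upper right, and Zeb1, Zeb2 and Twist1 near the centre.

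Genes that work with the factors were examined next, from lists chosen by function, also with earlier results of these data known. Beside each list stand the shares of all kept genes given above, 1.14% higher and 1.51% lower by edgeR and 19.8% at an unadjusted p under 0.05. Of all 14003 kept genes, DESeq2 called 141 higher and 191 lower, and limma-voom called 55 higher and 117 lower. Of 19 relatives, dimer partners and inhibitors of the factors, 13 were kept, of which 1 was higher and 1 lower by edgeR, with list medians of -0.00 with shAsns#1 and -0.01 with shAsns#2. Id1, whose protein sequesters the E-protein partners of TWIST factors, fell to 342 counts with shAsns#1 and 500 with shAsns#2, against 993 in scramble (log2 fold change by edgeR -1.45 ± 0.15, SE, adjusted p = 0.0071). Sox4, an SRY-box factor that takes part in EMT, rose to 133 and 123 CPM, against 75.6 CPM in scramble (log2 fold change by edgeR 0.76 ± 0.14, SE, adjusted p = 0.036). Sox4 also passed DESeq2 but not limma-voom (adjusted p = 0.051), while Id1 passed both. Tcf4, an E protein, had a log2 fold change by edgeR of -0.54 (adjusted p = 0.071) and Id3 one of -0.43 (adjusted p = 0.40). Snai3, Foxc2, Gsc and Id2 were listed at 0 in all libraries.

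Of 18 co-repressors of SNAIL and ZEB factors, 17 were kept and none passed edgeR, DESeq2 or limma-voom, with 3 at an unadjusted edgeR p under 0.05. The list medians were 0.03 with shAsns#1 and -0.04 with shAsns#2. The largest mean ratios were those of Ezh2, the methyltransferase of Polycomb complexes (0.41 and 0.48), Hdac1, a histone deacetylase (-0.36 and -0.52), Limd1 (0.40 and 0.29) and Ctbp1 (0.33 and 0.28). Of 16 genes that control the stability of the factor proteins, 14 were kept and none passed edgeR, DESeq2 or limma-voom, again with 3 at an unadjusted edgeR p under 0.05. The kinase gene Pak1 had log2 ratios of 0.86 and 0.35, the ubiquitin ligase gene Siah1a 0.31 and 0.69, Gsk3b, whose kinase marks SNAIL for degradation, 0.39 and 0.47, and Fbxl14 -0.30 and -0.29. Of 24 upstream inducers, 23 were kept, 1 was lower by edgeR and none was higher, and 6 had an unadjusted edgeR p under 0.05. DESeq2 likewise called 1 lower and none higher, and limma-voom called none. Fosl1, a subunit of the AP-1 factor, fell to 129 and 116 CPM, against 204 CPM in scramble (log2 fold change by edgeR -0.74 ± 0.14, SE, adjusted p = 0.039). Smad7, a feedback inhibitor of TGF-beta signaling, had log2 ratios of -0.71 and -0.87 (edgeR adjusted p = 0.054), the NOTCH target Hes1 of -0.54 and -0.91 (edgeR adjusted p = 0.23) and Ets1 of 0.57 and 0.58 (edgeR adjusted p = 0.079).

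Targets of the factors were taken as epithelial and mesenchymal genes. Of 25 epithelial junction and keratin genes that the factors repress, 10 were kept and none passed edgeR, DESeq2 or limma-voom, with 2 at an unadjusted edgeR p under 0.05 and list medians of -0.14 and -0.13. Tjp1 (ZO-1) had the highest TPM of them in scramble and log2 ratios of -0.19 and -0.19. Cgn, which encodes the junction protein cingulin, had -0.10 and -0.26, and Patj had -0.33 and -0.62. Krt8, an epithelial keratin, was at 3.63 CPM with shAsns#1 and 4.48 CPM with shAsns#2, against 1.23 CPM, or 23 counts, in scramble (edgeR adjusted p = 0.067). Jup was at 3.05 and 3.01 CPM, against 1.82 CPM, or 34 counts (edgeR adjusted p = 0.32). Of the epithelial guardians, the 3 that were kept did not pass edgeR, DESeq2 or limma-voom, and none had an unadjusted edgeR p under 0.05. Grhl2 had log2 ratios of 0.28 and 0.74, Grhl1 of 0.55 and 0.58, and Klf4 of -0.70 and -0.19. Of 26 mesenchymal genes, 22 were kept, and edgeR called 2 higher (9.09%) and 1 lower (4.55%), with list medians of -0.15 and -0.03. DESeq2 called 2 higher and 4 lower, where it called 141 higher and 191 lower of all 14003 kept genes. Limma-voom called 1 higher and 1 lower, where it called 55 higher and 117 lower of all kept genes. Fn1 (fibronectin) rose to 637 and 1041 counts, against 206 in scramble (log2 fold change by edgeR 1.80 ± 0.21, SE, adjusted p = 0.0096), and Tnc (tenascin-C) rose to 221 and 229 counts, against 61 (log2 fold change by edgeR 1.69 ± 0.26, SE, adjusted p = 0.022). Tnc did not pass limma-voom (adjusted p = 0.057). Loxl2, a lysyl oxidase that modifies matrix and is also known to stabilize SNAIL, fell to 158 and 150 CPM, against 329 CPM (log2 fold change by edgeR -1.10 ± 0.14, SE, adjusted p = 0.011). Vim did not pass edgeR, with log2 ratios of -0.51 and -0.91 (adjusted p = 0.18), while DESeq2 called it (adjusted p = 0.030). Acta2 had log2 ratios of 0.88 and 1.26 (edgeR adjusted p = 0.25), Sparc of -0.03 and -0.07, and Spp1 of -0.30 and 0.43.

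The other S100 genes were set beside S100a4. Of 16, 8 were kept, and none passed edgeR, DESeq2 or limma-voom, although 5 of the 8 had an unadjusted edgeR p under 0.05, where 19.8% of all kept genes did. The list medians were -0.39 with shAsns#1 and -0.89 with shAsns#2. S100a6 was at 496 and 302 CPM, against 676 CPM in scramble (edgeR adjusted p = 0.18), and S100a11 at 349 and 213 CPM, against 438 CPM (edgeR adjusted p = 0.23). S100a13 had log2 ratios of -0.75 and -1.13 (edgeR adjusted p = 0.056), and S100a1 of -0.59 and -1.01 (edgeR adjusted p = 0.077). With S100a4 included, 7 of the 9 kept S100 genes were below scramble with both hairpins. All 9 lie on chromosome 3. These genes are short, with deposited lengths of 498 bases for S100a4 and 1280 at most. The 495 genes of 400 to 800 bases with at least 50 counts, a range set after the values were seen, had medians of -0.07 for shAsns#1 and -0.32 for shAsns#2 on the log2 scale, and 55.2% of them lay below scramble with both hairpins, against 41.1% of all genes with at least 50 counts. The part of gene length in the S100 values was not tested. Of 9 partners and receptors of S100A4, 7 were kept, as 8 Ensembl entries since Sept2 has 2, and none of the 8 passed edgeR, DESeq2 or limma-voom, with 3 at an unadjusted edgeR p under 0.05. The Sept2 (septin) entries overlap and its reads may be split between them, one with log2 ratios of -0.85 and -0.38 and the other with 0.20 and 0.02. The liprin gene Ppfibp1 had -0.57 and -0.50, Anxa2 (annexin A2) -0.09 and -0.41, and Trp53 0.18 and 0.26.

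**Figure D5:**
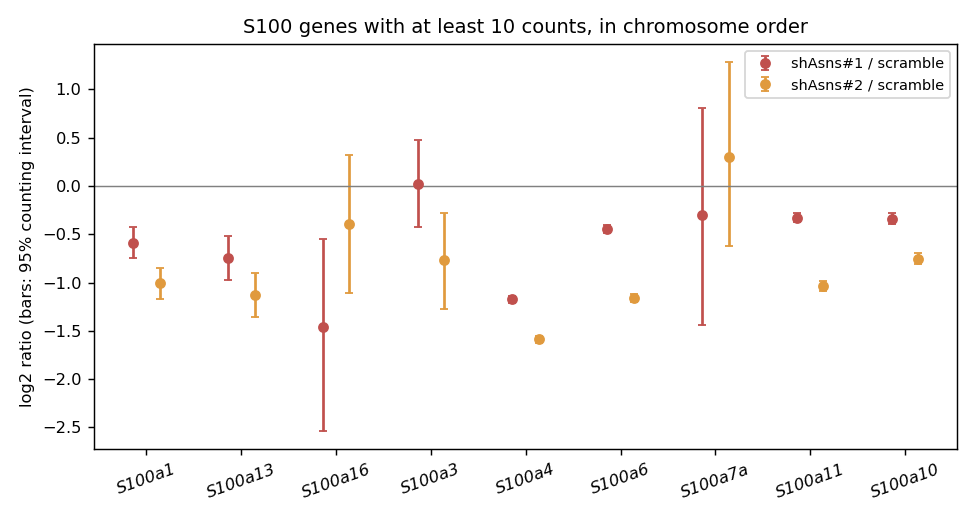
Log2 ratio to scramble (vertical axis) of the 9 S100 genes with at least 10 counts in a library, in their order along chromosome 3, for shAsns#1 and shAsns#2; points are single libraries and bars are 95% counting intervals. S100a4 had the lowest ratio with shAsns#2 (-1.59). S100a1, S100a13, S100a3, S100a4, S100a6, S100a11 and S100a10 were lower with shAsns#2 than with shAsns#1, and S100a16 and S100a7a had wide intervals.

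Among 11341 other genes with at least 50 counts in a library, those with a pair of log2 ratios nearest to S100a4 were Ano1 (-1.23 and -1.58), Vwa1 (-1.21 and -1.54), Hmgn2 (-1.18 and -1.52) and Rpl21-ps15 (-1.20 and -1.52), at Euclidean distances of 0.058 to 0.067. Nearest to Twist2 were Vgf (-1.47 and -1.05), Ptprf (-1.42 and -1.04), Jund (-1.52 and -1.07) and Gm12840 (-1.42 and -1.11), at distances of 0.007 to 0.078. Such nearness rests on 2 ratios that share the scramble library.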

How the data were processed

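RNA-seq of 3 MBT2 libraries was used. Estimated counts per Ensembl gene were deposited by the authors, unscaled and in part not whole (32.6% to 33.0% of values above 0, beyond 1e-09 of a whole number), with gene lengths. The submitters' processing notes name Bowtie 0.12.2 with no role; the sources used here give no counter, genome build or annotation. Symbols came from GENCODE M21 (52029 of 57010 identifiers; the others held 1.46% of the counts).

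Counts were rounded, genes that reached 10 counts in 1 or more libraries were kept, and library sizes were scaled by TMM. Log2 ratios used a prior count of 0.5. The shAsns libraries were tested against scramble with edgeR 4.0.16 (glmQLFit, glmQLFTest; Benjamini-Hochberg adjusted p under 0.05; standard error from the fold change and F), and pairs of libraries by an exact two-sided binomial test with the same adjustment. DESeq2 1.42.0 and limma 3.58.1 (voom) were alternatives, as were other scalings, filters, thresholds and a prior count of 2. TPM used the deposited lengths and was not scaled by TMM. Poisson and Clopper-Pearson 95% intervals cover counting error only. The tests were checked on simulated counts with the same fold change in both hairpin libraries. That check does not cover effects of a single hairpin or an atypical scramble library. R 4.3.3 and Python 3.11.15 were used.

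The 8 genes and the function lists were chosen with earlier results of these data known. Named from each list were up to 4 genes with the largest mean ratio over both hairpins among those with at least 50 counts in 1 library, and, for epithelial and mesenchymal lists, the 3 with the most TPM in scramble; other genes named were chosen after their values were seen. Of the 4 endothelial markers 1 was kept and did not pass edgeR, DESeq2 or limma-voom, with none at an unadjusted edgeR p under 0.05. The 3 kept urothelial markers did not pass edgeR, DESeq2 or limma-voom, with 1 at an unadjusted edgeR p under 0.05; Gata3 had log2 ratios of 0.79 and 1.07 and Foxa1 of -0.30 and -0.29. Of 6 kept fibroblast markers, Dcn was higher by edgeR (1.43 and 1.88); Pdgfrb had -1.04 and -0.53, Col1a1 -0.96 and -0.55, and Col1a2 0.52 and 0.51.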

Additional observations from a re-analysis of the deposited data

How the results depend on the processing

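No paired analysis was possible because each condition had 1 library. S100a4 kept its call in edgeR under each scaling, filter and prior count tried, and passed DESeq2 and limma-voom, each run with 1 setting; Twist2 lost its call only when the counts of overlapping genes were added (adjusted p = 0.060, 1 gene of the 8 then lower), an alternative chosen after the data were seen. Snai2 passed edgeR with total counts, with no filter and with at least 10 counts in every library, and passed DESeq2, which gave 1 gene higher in each; Snai1 passed edgeR under the same 3 settings (log2 fold changes -0.59, -0.67 and -0.66). Without shAsns#1 or shAsns#2 in turn the edgeR test has no residual degrees of freedom, and the remaining log2 ratio is a value with no test, from -1.59 to -1.17 for S100a4, -1.47 to -1.04 for Twist2, -0.69 to -0.65 for Snai1 and 0.78 to 1.35 for Snai2. Over all genes, edgeR called 87 higher and 122 lower with DESeq2 size factors, 740 and 517 with total counts, and 700 and 856 with no filter, against 160 and 211, and limma-voom called 55 and 117. Scaling by total counts placed the median of all genes, as a log2 ratio, at 0.04 with shAsns#1 and 0.11 with shAsns#2. The ratios with shAsns#2 then turned to 0.023 for Twist1, 0.0030 for Zeb1 and 0.080 for Zeb2, so that these 3 lay below the median of all genes, and S100a4 at -1.47 no longer passed the threshold of 1.5, leaving 0 of the 8. With at least 10 counts in every library the binomial test called 96 higher and 54 lower with shAsns#1, 138 and 60 with shAsns#2, and 11 and 19 between the hairpins; at 1.5-fold it called 775 and 805, 1050 and 1151, and 316 and 345, with 1 of the 8 higher and 3 lower for each hairpin. Elsewhere the cause was not tested. Depth limited Cdh1, Prrx2 and S100a16, at under 50 counts.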
